A study of Homo sapiens with 24 samples.

Results

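The comparison described here is that of the small molecule ID8 with its vehicle, DMSO, in the Aldefluor- fraction of T47D cells. It rests on 6 of the 24 arrays of the study, chosen by their titles: 3 arrays of DMSO-treated and 3 of ID8-treated T47D Aldefluor- cells, 1 of each from experiments 5, 6 and 7. All 22395 genes that could be named were tested. T47D is an established luminal, hormone-receptor-positive breast cancer line. Per the labels' protocols, each experiment pooled the cells of 3 flasks per treatment after 72 hours with DMSO or 5 µM ID8. The cells were stained with Aldefluor, a reagent that becomes fluorescent where aldehyde dehydrogenase is active, and the gate was set on cells that also received the inhibitor DEAB. Cells outside the positive gate were collected as Aldefluor-, the fraction that the submitters treat as cells that are not cancer stem cells. RNA was amplified and hybridised to Affymetrix Human Gene ST 2.1 arrays. Values are log2 signals, and differences are ID8 minus DMSO on that scale. The same 2 treatments in T47D Aldefluor+ cells (6 arrays) and in Aldefluor- cells of SUM159, a triple-negative line (6 arrays, experiments 2 to 4), serve as comparisons. The labels name no genetic modification of either line.

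ID8 is known as an inhibitor of the DYRK kinases, a family that phosphorylates regulators of the cell cycle, of splicing and of transcription. Aldehyde dehydrogenases oxidise aldehydes, among them retinaldehyde, the precursor of retinoic acid, and high activity is used to enrich tumour cells with stem-like behaviour. Cells outside the Aldefluor gate are the reference against which such cells are set, and their own response to a compound is measured here.

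Of the 22395 genes, 4 passed the test, and for 3 of them RefSeq (GRCh38.p14) held a promoter entry. The sequences before their annotated starts are shown first, with those of 2 interferon-stimulated genes described further on. Which start is used in these cells was not measured, and CXCR4 has 3 annotated starts. Each line gives the 200 bases before the start, 5′ to 3′ on the gene's strand, and where a gene has several starts the one furthest upstream was taken. The minus strand of chr2:136118150-136118349 was read for CXCR4, the plus strand of chr6:49499723-49499922 for GLYATL3 and the minus strand of chr9:129753043-129753242 for PTGES. IFIT1 and IFIT5 were read from the plus strand of chr10:89392423-89392622 and chr10:89414368-89414567. Capitals mark matches, on either strand, to the TATA box letters TATAAA, to the GC box letters GGGCGG or to the core of the interferon-stimulated response element, TTCNNTTTC.
CXCR4: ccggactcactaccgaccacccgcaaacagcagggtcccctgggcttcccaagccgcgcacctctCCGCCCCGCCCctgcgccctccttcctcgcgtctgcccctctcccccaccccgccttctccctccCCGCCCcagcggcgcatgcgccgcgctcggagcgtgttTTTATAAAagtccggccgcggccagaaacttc
GLYATL3: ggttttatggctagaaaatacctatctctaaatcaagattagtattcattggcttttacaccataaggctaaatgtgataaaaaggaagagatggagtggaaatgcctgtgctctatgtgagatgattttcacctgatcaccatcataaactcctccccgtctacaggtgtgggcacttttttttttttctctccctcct
PTGES: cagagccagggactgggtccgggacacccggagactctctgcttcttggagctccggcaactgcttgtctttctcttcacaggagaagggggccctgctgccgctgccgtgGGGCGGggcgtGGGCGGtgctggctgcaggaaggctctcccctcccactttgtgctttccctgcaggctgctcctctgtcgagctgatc
IFIT1: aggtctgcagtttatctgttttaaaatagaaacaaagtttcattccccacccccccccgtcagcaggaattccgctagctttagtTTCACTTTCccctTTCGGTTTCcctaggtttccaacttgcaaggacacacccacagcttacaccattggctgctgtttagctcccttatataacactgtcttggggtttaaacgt
IFIT5: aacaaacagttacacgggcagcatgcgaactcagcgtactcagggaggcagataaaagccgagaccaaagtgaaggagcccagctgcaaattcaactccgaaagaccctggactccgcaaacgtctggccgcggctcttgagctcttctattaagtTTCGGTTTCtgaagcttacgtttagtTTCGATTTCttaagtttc

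The CXCR4 window held TATAAA 30 to 25 bases before the start, overlapped by the same letters on the opposite strand, and 3 GC boxes, of which 2 share a base. The PTGES window held 2 GC boxes and no TATA box, and the GLYATL3 window held neither. Among the 15489 tested genes with a promoter entry, 7.41% had the TATA box letters and 52.2% the GC box letters in a window of this length. A match is a run of letters and not a tested site. SAA1, the fourth gene, is named only.

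Levels of cell type markers are given as a description. The deposited values were adjusted for batches, and each experiment held only T47D or only SUM159 cells. That adjustment may have moved the levels of both lines toward each other, so the levels cannot test which line was used. All 15 luminal markers, among them EPCAM, KRT8, KRT18, GATA3 and FOXA1, had a mean of at least 2 over the 6 arrays, and their average level lay between 4.75 and 4.94 on the DMSO arrays and between 4.83 and 4.85 on the ID8 arrays. Of the markers of other cell types, 6 of 7 immune, 4 of 4 endothelial and 3 of 3 adipocyte genes lay below 2. This cut lies near the level of the median gene, 2.07 with DMSO, and no background was measured. A value below 2 does not show that RNA was absent, since GAPDH was at 1.86 with DMSO. CD68 was the exception among the immune genes at 3.40 with DMSO and 3.29 with ID8. Among 7 fibroblast and mesenchymal markers 5 were at 2 or more, led by FN1, fibronectin, at 6.75 and 6.74. VIM, vimentin, was at 4.48 with DMSO, while the luminal markers ran from ESR1 at 2.87 to XBP1 at 7.32. Of 5 basal markers only KRT5 and KRT14 were measured, and both lay below 2. In a longer list of basal and myoepithelial genes 7 of 16 measured members had a group mean of at least 2, led by the integrin ITGA6 at 6.28 and the receptor EGFR at 4.81 with DMSO. None of these markers passed the test. The interquartile range of the array values ran from 2.97 to 3.12, apart from 1 SUM159 array (DMSO, Aldefluor+, experiment 4) at 2.88. That array enters only the pooled estimate of the spread, and without it 5 genes passed the test.

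The amount of RNA per collected cell was lower with ID8 in 2 of 3 experiments. With DMSO it was 10.90, 13.49 and 16.95 pg in experiments 5, 6 and 7, and with ID8 it was 8.19, 13.66 and 13.64 pg. The log2 ratios were -0.41, 0.02 and -0.31, a mean of -0.24 ± 0.23 (SD, n = 3), and the groups overlapped. The exact two-sided sign-flip permutation test gave p = 0.50, and the smallest p that 3 pairs allow is 0.25. Arrays received equal amounts of RNA, and in such bulk samples fewer cells that express a gene and less of its RNA in each cell cannot be told apart.

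Few genes passed the test of ID8 against DMSO in T47D Aldefluor- cells. CXCR4, a chemokine receptor, GLYATL3, a member of the glycine N-acyltransferase family, and SAA1, an acute-phase protein, rose, and PTGES, a prostaglandin E synthase, fell. In limma's test with Benjamini-Hochberg adjustment over all genes, 4 genes (0.0179%) had an adjusted p under 0.05, of which 3 were higher (0.0134%) and 1 was lower (0.00447%) with ID8. An unadjusted p under 0.05 was reached by 1479 genes, 6.6% of those tested. The median difference over all genes was -0.00065, and 49.86% of the genes lay above 0. The median SE of a difference was 0.185, so that the 95% interval of a typical gene reached 0.393 to either side. Groups that did not overlap, with all 3 ID8 arrays above or all 3 below the DMSO arrays, were found for 3701 genes (16.5%), and 6131 genes (27.4%) had the same sign in all 3 experiments.

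CXCR4 is the receptor of the chemokine CXCL12, which guides the migration of leukocytes and of metastasising breast cancer cells. Its log2 signal was 1.59, 1.35 and 2.05 with DMSO and 3.66, 3.96 and 3.55 with ID8. In each experiment the ID8 array lay at least 1.50 above its DMSO array, and the groups did not overlap. CXCR4 rose by 2.06 ± 0.277 (SE, n = 3), a 4.17-fold higher signal (adjusted p = 0.0294). CXCL12 itself was at 6.12, 5.94 and 6.02 with DMSO and at 5.46, 5.48 and 5.45 with ID8, a difference of -0.56 ± 0.163 that did not pass the test (adjusted p = 0.467). ACKR3, the second receptor of CXCL12, differed by 0.54 (adjusted p = 0.748). The list of this ligand and its receptors was made after values had been seen.

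GLYATL3 belongs to the enzymes that join acyl groups to amino acids. It was at 1.17, 1.19 and 1.22 with DMSO, and at 2.53, 2.62 and 2.88 with ID8. The groups lay apart in all 3 experiments. GLYATL3 rose by 1.48 ± 0.209 (SE, n = 3), which is 2.79-fold (adjusted p = 0.0294). The other 3 family members measured, likewise listed after the fact, GLYAT, GLYATL1 and GLYATL2, lay below 2 in both groups and differed by 0.29, -0.10 and -0.31, none past the test. Because the DMSO means of CXCR4 (1.66) and GLYATL3 (1.19) lay below 2, the size of both changes may depend on how the background was treated, which was not tested.

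SAA1, serum amyloid A1, is an acute-phase protein that epithelial cells also make in inflammation. It was at 3.92, 4.27 and 3.69 with DMSO and at 6.03, 5.08 and 5.71 with ID8. The increase was 2.11 in experiment 5, 0.81 in experiment 6 and 2.02 in experiment 7, so that experiment 6 stood below the others while the groups still did not overlap. SAA1 rose by 1.65 ± 0.242 (SE, n = 3), which is 3.13-fold (adjusted p = 0.0312). SAA1 has near-identical neighbours in its family whose probe set is shared and was not named, so the signal may not be that of SAA1 alone. S100A9, a calcium-binding alarmin of the same inflammatory setting, was at 2.54, 2.57 and 2.45 with DMSO and at 3.55, 3.98 and 3.75 with ID8. Its difference of 1.24 ± 0.201 just missed the threshold (adjusted p = 0.0516). Of 13 acute-phase and alarmin genes measured, in a list made after values had been seen, SAA1 was the only one called, 10 lay above 0 and the median was 0.17. LCN2, lipocalin-2, and CP, ceruloplasmin, each differed by 0.59, and S100A8, the usual partner of S100A9, by -0.39 (adjusted p = 0.897).

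PTGES makes prostaglandin E2 from the product of the cyclooxygenases. It was at 3.28, 3.13 and 2.93 with DMSO and at 2.05, 1.61 and 1.65 with ID8, again without overlap. PTGES fell by 1.34 ± 0.206 on the log2 scale (SE, n = 3, adjusted p = 0.0413), and its ID8 mean of 1.77 lay below 2. The other 10 measured genes of prostaglandin E2 synthesis, transport, breakdown and reception, also listed after values had been seen, did not pass the test. The cyclooxygenases PTGS1 and PTGS2 differed by 0.01 and -0.10, the synthase PTGES2 by 0.22 and the degrading enzyme HPGD by -0.02. The receptors PTGER1 to PTGER4 differed by between -0.29 and 0.20.

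**Figure D1:**
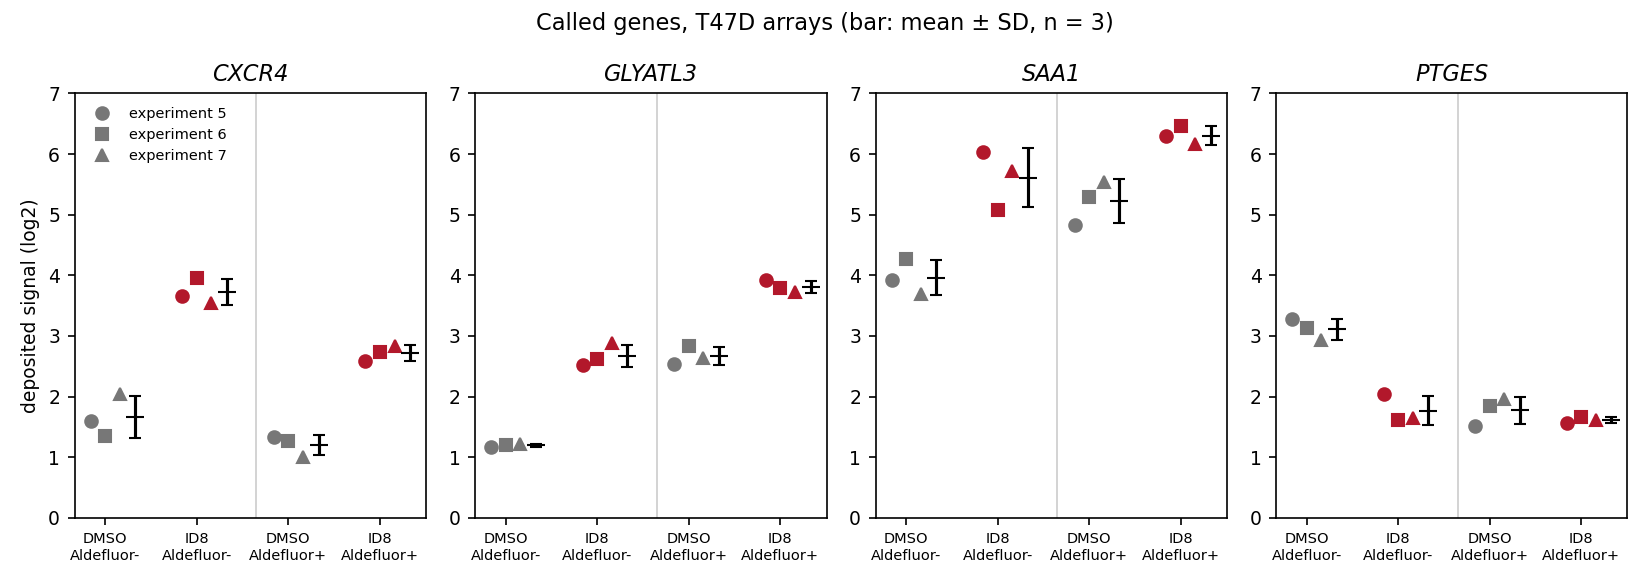
Deposited log2 signal (y axis) of the 4 called genes in the 12 T47D arrays, by treatment and fraction (x axis). Points are single arrays with a symbol for each experiment, and the bar gives the mean ± SD (n = 3). In Aldefluor- cells CXCR4, GLYATL3 and SAA1 lie higher with ID8 and PTGES lies lower, with no overlap, and PTGES in Aldefluor+ cells is near 1.77 with DMSO and 1.61 with ID8.

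These 4 calls lay close to the threshold, and leaving out any 1 T47D experiment changed them. Without experiment 5 only TGFB2 was called, without experiment 6 only SAA1 (2.07, adjusted p = 0.0294) and RMST, and without experiment 7 none, with 1286 genes at an unadjusted p under 0.05. The differences themselves kept their sign: across these 3 fits CXCR4 lay between 1.79 and 2.34, GLYATL3 between 1.39 and 1.54, SAA1 between 1.41 and 2.07 and PTGES between -1.40 and -1.25. Fitting only the 12 T47D arrays left CXCR4 and GLYATL3 (both adjusted p = 0.0147), with SAA1 at 0.301 and PTGES at 0.0921. Centring each array on its median left PTGES at an adjusted p of 0.0505.

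Beyond the 4 called genes, the 10 genes of lowest p in each direction are given as values. Higher with ID8 but not called were, after S100A9, the lncRNA RSF1-IT1 (0.70, adjusted p = 0.0516), NTN4, a secreted netrin (0.94, adjusted p = 0.0639), PLAAT4, a phospholipase and acyltransferase known as a retinoid-induced gene (0.92, adjusted p = 0.104), and ACOT4, a peroxisomal acyl-CoA thioesterase (1.30, adjusted p = 0.109). RTN4RL2, a Nogo receptor homologue, differed by 0.87 and the annexin ANXA3 by 0.81. NTN4 was at 3.73, 3.56 and 3.58 with DMSO and at 4.34, 4.68 and 4.66 with ID8, and PLAAT4 was at 3.14, 3.16 and 2.94 and at 3.78, 4.08 and 4.14. Neither gene overlapped between the groups, which was so for 16.5% of all genes.

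Lower with ID8 but not called were the lncRNA RMST (-0.99, adjusted p = 0.0516), FSTL3, a secreted binder of activin (-1.03, adjusted p = 0.0941), the matrix protein thrombospondin-1, THBS1 (-0.77, adjusted p = 0.112), and ABCA12, a lipid transporter (-0.67, adjusted p = 0.113). THBS1, the most abundant of these, was at 8.93, 8.81 and 8.90 with DMSO and at 8.16, 8.04 and 8.11 with ID8. Its difference was -0.77, -0.77 and -0.78 in experiments 5, 6 and 7, the most even of the 20 genes by range. The zinc finger genes ZNF233 and ZNF267 differed by -0.77 and -0.62, the GTPase regulator ACAP1 by -0.64, and the pseudogene PA2G4P4 and the small RNA entry RN5S248 by -0.76 and -1.15. All 20 genes had groups that did not overlap and the same sign in the 3 experiments, which choosing them by low p favours. For 10 of the 20, the mean of at least 1 group lay below 2.

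**Figure D2:**
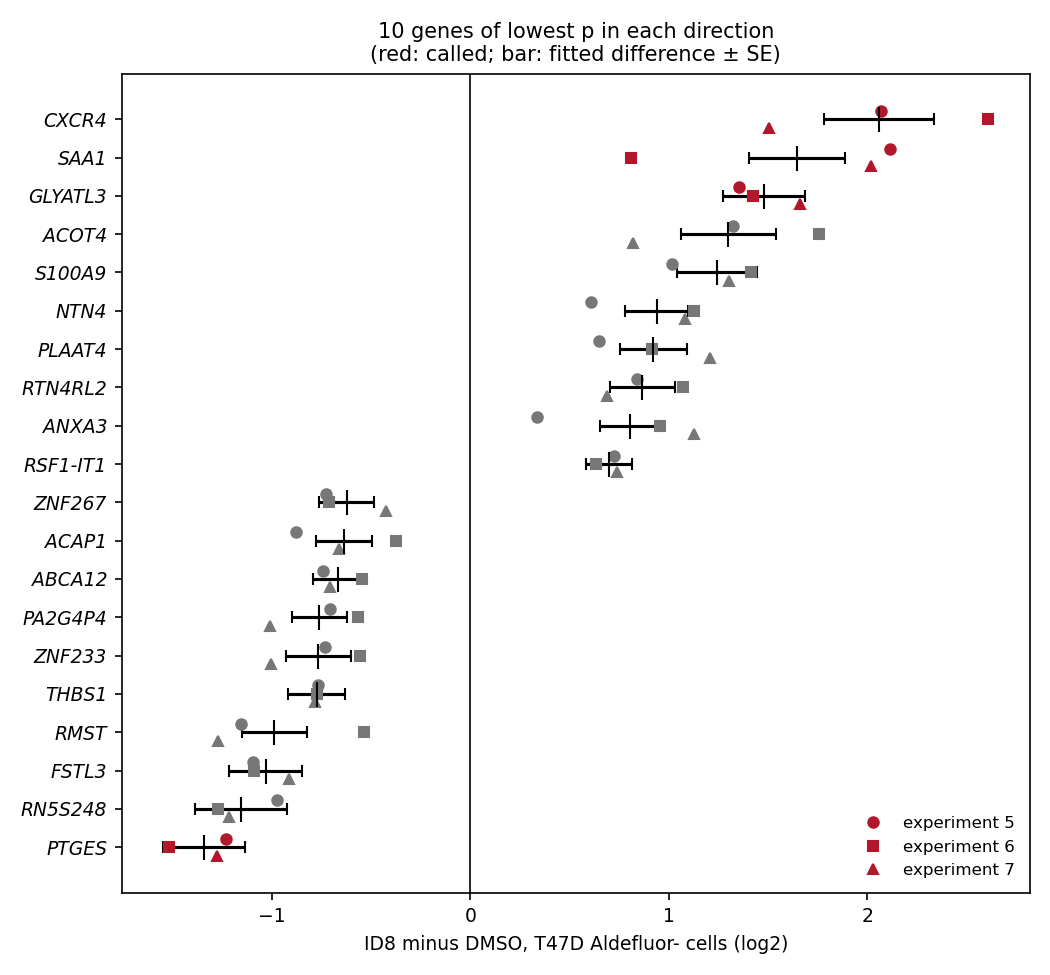
Difference between ID8 and DMSO in T47D Aldefluor- cells (x axis, log2) for the 10 genes of lowest p in each direction (y axis). Points are the 3 experiments, red for the 4 called genes and grey for the others, and black bars are the fitted difference ± SE. SAA1 and CXCR4 vary most between experiments, from 0.81 to 2.11 and from 1.50 to 2.61, while THBS1 stays between -0.78 and -0.77.

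The same treatment gave more calls in the Aldefluor+ fraction, with 84 genes (0.375%), 65 of them higher and 19 lower. No gene passed a test of the difference between both ID8 effects (0 of 22395, 0%, smallest adjusted p = 0.504), although 1328 genes had an unadjusted p under 0.05 in that limma test. A larger number of calls in 1 fraction is therefore not shown to be a different response. CXCR4 and GLYATL3 were the genes called in both fractions. CXCR4 was at 1.33, 1.27 and 1.01 with DMSO and at 2.58, 2.74 and 2.84 with ID8 in Aldefluor+ cells. The rise there was 1.52 ± 0.277 (adjusted p = 0.0248), and the effect in Aldefluor- cells exceeded it by 0.54 (95% interval -0.29 to 1.37). GLYATL3 rose by 1.14 ± 0.209 in Aldefluor+ cells (adjusted p = 0.0256), a difference between fractions of 0.34 (-0.29 to 0.97).

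SAA1 differed by 1.08 ± 0.242 in Aldefluor+ cells (adjusted p = 0.0701), from 4.83, 5.29 and 5.55 with DMSO to 6.29, 6.46 and 6.16 with ID8. PTGES in Aldefluor+ cells was at 1.52, 1.85 and 1.95 with DMSO and at 1.56, 1.66 and 1.62 with ID8, and the groups overlapped. Its difference there was -0.16 ± 0.206 (adjusted p = 0.853). The test of the gap between fractions, -1.18 (95% interval -1.80 to -0.56), had an adjusted p of 0.505 over all genes. Both Aldefluor+ means of PTGES lay below 2, and no background was measured. Whether this low level limited a fall there was not tested.

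The levels of several of these genes in both fractions are set side by side, with no test, because a difference between the untreated fractions would share the DMSO arrays with the ID8 effect. PTGES had a mean of 3.11 in Aldefluor- cells with DMSO, 1.77 with ID8, 1.77 in Aldefluor+ cells with DMSO and 1.61 with ID8. GLYATL3 had means of 1.19, 2.67, 2.67 and 3.81 in the same order, SAA1 of 3.96, 5.61, 5.22 and 6.31, and S100A9 of 2.52, 3.76, 3.62 and 4.18. CXCR4 had means of 1.66, 3.72, 1.20 and 2.72, PLAAT4 of 3.08, 4.00, 3.16 and 4.06, and ABCA12 of 4.94, 4.28, 3.76 and 2.86. All but the first of the PTGES means lay below 2. These genes were picked after their values had been seen, and nothing is read from how their levels line up.

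Of the 20 genes of lowest p, 19 had the same sign in Aldefluor+ cells, and 6 were called there, beside 84 (0.375%) of all genes. NTN4 (1.09, adjusted p = 0.00753), PLAAT4 (0.90, adjusted p = 0.0277), ANXA3 (1.60, adjusted p = 0.00042) and ABCA12 (-0.91, adjusted p = 0.00735) were called in Aldefluor+ cells beside CXCR4 and GLYATL3. RTN4RL2 and RSF1-IT1, by contrast, were at 0.09 and 0.08 there, and ZNF233 was at 0.26. Conversely, of the 84 genes called in Aldefluor+ cells, 72 had the same sign in Aldefluor- cells and 45 had an unadjusted p under 0.05 there. Over all genes 55.7% had the same sign in both fractions and 6.60% had an unadjusted p under 0.05 in Aldefluor- cells. Both tests take the SE of a gene from the same fit, so a gene with a small SE has it in both fractions. Choosing genes by low p in 1 fraction therefore raises the count of low p in the other. The 45 genes are not to be read as a shared response from that count alone. Across all genes the 2 sets of differences correlated at 0.165. They share no array, but both fractions of an experiment were sorted from the same treated and pooled flasks, so they are not separate cultures. Genes are not independent replicates, and the correlation describes these arrays only. Within Aldefluor- cells, the differences of single experiments correlated at 0.0456 (5 and 6), 0.0333 (5 and 7) and 0.0423 (6 and 7).

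**Figure D3:**
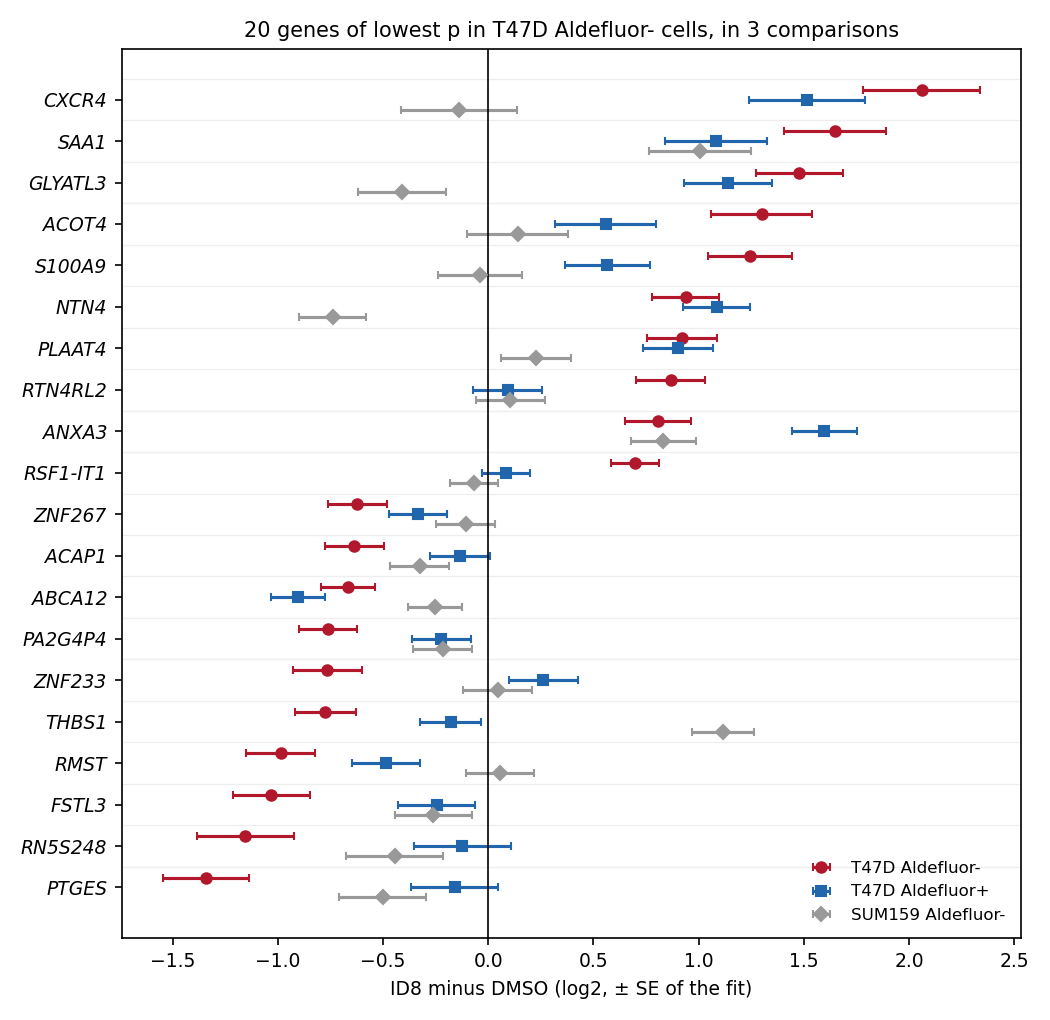
Difference between ID8 and DMSO (x axis, log2, ± SE of the fit) for the 20 genes of lowest p in T47D Aldefluor- cells (y axis), shown for T47D Aldefluor- cells (red), T47D Aldefluor+ cells (blue) and SUM159 Aldefluor- cells (grey). CXCR4, GLYATL3, NTN4 and PLAAT4 are high in both T47D fractions. PTGES is at -1.34 in Aldefluor- and -0.16 in Aldefluor+ cells (where both its means lie below 2). In SUM159, 12 of the 20 genes have the same sign as in T47D Aldefluor- cells. THBS1, NTN4, CXCR4 and GLYATL3 are among those with the opposite sign.

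In Aldefluor- cells of SUM159, ID8 gave 62 calls (0.277%), 42 higher and 20 lower. The test of the difference between the lines called 15 genes (0.067%), of which 12 had the lower effect in T47D. GLYATL3 is among the 3 with the higher effect in T47D. It differed by -0.41 in SUM159 (adjusted p = 0.656), so that the effects lay 1.89 ± 0.295 apart (adjusted p = 0.018). NTN4 differed by -0.74 in SUM159 (adjusted p = 0.0749) and the effects lay 1.68 apart (adjusted p = 0.00445). THBS1 was called in the opposite direction in SUM159, where it rose by 1.12 (adjusted p = 0.00181), and the effects lay -1.89 apart (adjusted p = 0.000505). CXCR4 differed by -0.14 in SUM159, and the difference between lines of 2.20 just missed the threshold (adjusted p = 0.0511). SAA1 differed by 1.01 in SUM159 (adjusted p = 0.130), and the lines were not shown to differ (0.64, adjusted p = 0.791). Of the 20 genes of lowest p in T47D Aldefluor- cells, 12 had the same sign in SUM159 Aldefluor- cells. Across all genes the differences in both lines correlated at 0.0422. The correlations of 0.0333 to 0.0456 between experiments of the T47D Aldefluor- comparison rest on single pairs of arrays and are not a like measure. On fitted differences the T47D fractions correlated at 0.165, but these were sorted from the same flasks. Whether the low value between lines reflects unlike responses was not tested.

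Genes tied to the compound and to the sort did not pass the test. The retinaldehyde-oxidising enzymes ALDH1A1, ALDH1A2 and ALDH1A3 differed by 0.13, 0.04 and -0.06. ALDH1A1 was at 3.18, 3.28 and 2.75 with DMSO and at 3.14, 3.19 and 3.27 with ID8, with overlapping groups. Among 14 other aldehyde dehydrogenases 9 lay above 0, from ALDH3B2 at -0.60 to ALDH3B1 at 0.78. The kinases DYRK1A, DYRK1B, DYRK2, DYRK3 and DYRK4 differed by 0.08, 0.21, -0.32, -0.04 and -0.10. The list of DYRK, HIPK and CLK kinases had 5 of 12 members above 0 and a median of -0.04, and CLK1 was not among the named probe sets. The calcineurin and NFAT genes, whose products DYRK1A opposes, had 6 of 12 members above 0 and a median of 0.00447, with the calcineurin regulator RCAN1 at 0.25. ESR1, the oestrogen receptor, differed by 0.36 (adjusted p = 0.825), PGR, the progesterone receptor, by -0.02, CCND1, cyclin D1, by -0.18, CDKN1A, the inhibitor p21, by 0.21 and MYC by 0.08. CYP1A1 and CYP1B1, targets of the aryl hydrocarbon receptor, differed by 0.16 and 0.27.

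Described over 51 lists of pathways, cell states and cell types, the effect was small. Among these 51 lists the single called member was SAA1, in the list of NF-κB targets and inflammatory cytokines. A further 4 lists were drawn up around the called genes (CXCL12 receptors, glycine N-acyltransferases, prostaglandin E2 genes and acute-phase genes), so the called member that each holds is there by choice. List medians ran from -0.27 for histones to 0.28 for interferon-stimulated genes, beside -0.00065 over all genes, and 41 of the 51 lay within 0.1 of 0. In 17 lists the median had the same sign in all 3 experiments. No set test was run, and the counts of members above 0 are to be read against the 49.86% of all genes.

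**Figure D4:**
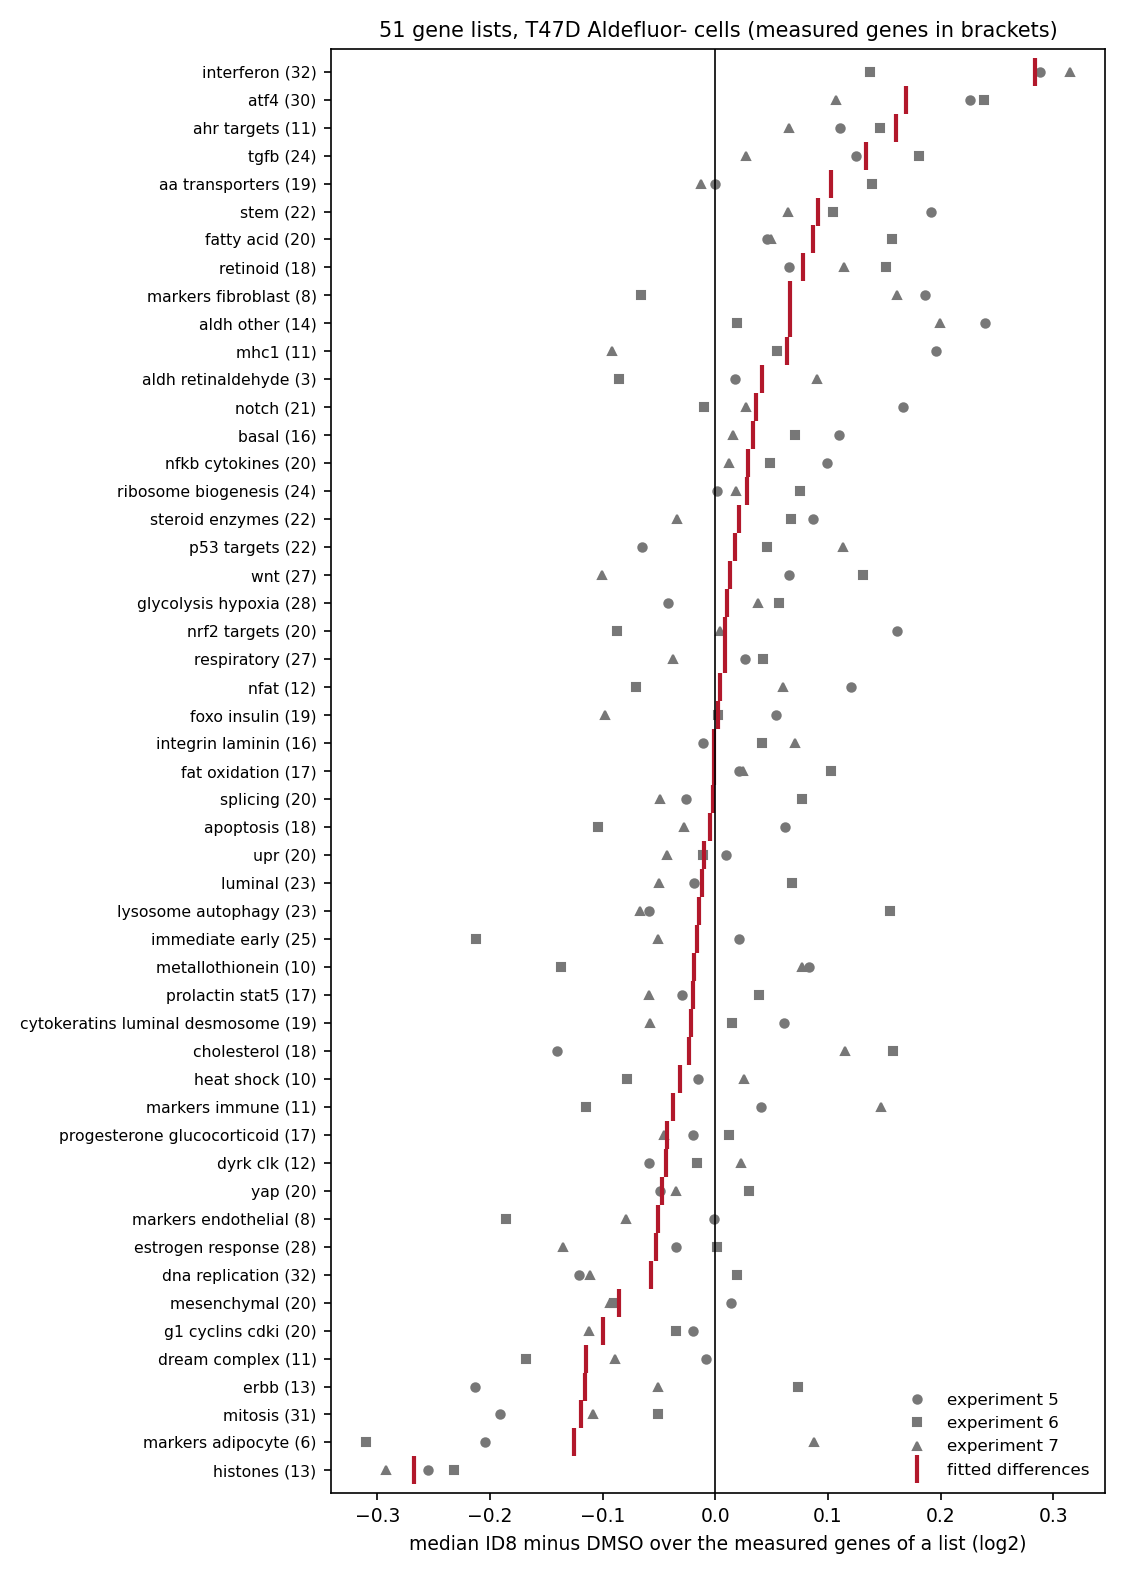
Median difference between ID8 and DMSO in T47D Aldefluor- cells (x axis, log2) over the measured genes of each of 51 lists (y axis, number of genes in brackets). Grey symbols are the medians in single experiments and red bars the medians of the fitted differences. The interferon list stands highest at 0.28 and histones lowest at -0.27, and 41 lists lie within 0.1 of 0.

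Interferon-stimulated genes are antiviral effectors that share a response element in many of their promoters. Of 32 measured, 25 lay above 0, 9 of them at an unadjusted p under 0.05 against 1 that lay below 0, and none was called. Over all genes 6.6% had an unadjusted p under 0.05 in either direction. The list median was 0.28, and it was 0.29, 0.14 and 0.31 in experiments 5, 6 and 7. IFIT1, which binds viral RNA, was at 0.81, 1.38 and 1.04 with DMSO and at 2.38, 2.13 and 1.70 with ID8, a difference of 0.99 ± 0.389 (adjusted p = 0.706). MX1, an antiviral GTPase, was at 2.02, 1.91 and 2.36 and at 3.10, 2.76 and 3.06, a difference of 0.88 (adjusted p = 0.584), and IFIT5 differed by 0.79 (adjusted p = 0.462). The groups did not overlap for any of these 3 genes, the highest of the list. The same held for 16.5% of all genes. BST2, tetherin, one of the more abundant members, went from 6.30, 6.46 and 6.56 to 6.89, 6.82 and 6.70, a difference of 0.36. HERC6 and MX2 were the lowest, at -0.39 and -0.22, and 11 of the 32 genes lay below 2 in both groups. The same list had a median of 0.24 in Aldefluor+ cells, with none of its genes called. Among the 25 members with a promoter entry, 17 (68%) held the letters TTCNNTTTC in the 200 bases before the start, against 4.58% of all tested genes. IFIT1 and IFIT5, printed above, hold 2 such matches each.

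Targets of ATF4, the factor of the amino acid and integrated stress response, had the next highest median at 0.17. Of 30 measured, 24 lay above 0, 6 of them at an unadjusted p under 0.05 (6.6% over all genes in either direction), and none was called. GDF15, a stress-induced cytokine, was at 3.99, 4.10 and 4.16 with DMSO and at 4.64, 4.92 and 4.98 with ID8, a difference of 0.77 (adjusted p = 0.374). PSAT1, an enzyme of serine synthesis, differed by 0.61, ALDH1L2, a mitochondrial folate enzyme, by 0.60 and STC2, stanniocalcin-2, by 0.45 (adjusted p = 0.428). FGF21, another stress-induced hormone, was the lowest at -0.50, and the factor ATF4 itself was at -0.01. PSAT1 was at -0.05 in Aldefluor+ cells, while ALDH1L2 and STC2 were at 0.69 and 0.50 there. The letters TGATGNAA, the core of the amino acid response element, were present in 4 of 25 promoters (16%), against 1.89% of all. The stress genes of the unfolded protein response had 8 of 20 members above 0 and a median of -0.01, and those of the heat shock response 3 of 10 and -0.03.

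Genes of proliferation lay slightly below 0. Of 31 mitosis genes 7 lay above 0, with a median of -0.12, and of 32 DNA replication genes 11, with a median of -0.06. KIF2C, a mitotic kinesin, was at 4.75, 4.57 and 4.83 with DMSO and at 4.27, 4.28 and 4.30 with ID8, a difference of -0.43 (adjusted p = 0.709). MKI67, the proliferation antigen Ki-67, differed by -0.27 and CDK1 by -0.35, while UBE2C was at 0.23. G1 cyclins and their inhibitors had 6 of 20 members above 0 (median -0.10), and the DREAM complex, which DYRK1A helps to assemble, had 2 of 11 (median -0.11). The 13 replication-dependent histone genes that could be named had 3 members above 0 and the lowest median, -0.27, with H2BC3 at -0.66, H2BC9 at -0.48 and H1-2 at 0.24. Histone genes are near-identical copies, and a signal may be shared between them. In Aldefluor+ cells the medians were -0.24 for mitosis, -0.22 for replication and -0.30 for histones, and no gene of these lists was called in either fraction. The histone gene H1-10, which is outside the list, was at -0.38 in Aldefluor- cells (adjusted p = 0.467). In Aldefluor+ cells it was called, at -0.68 (adjusted p = 0.0129).

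**Figure D5:**
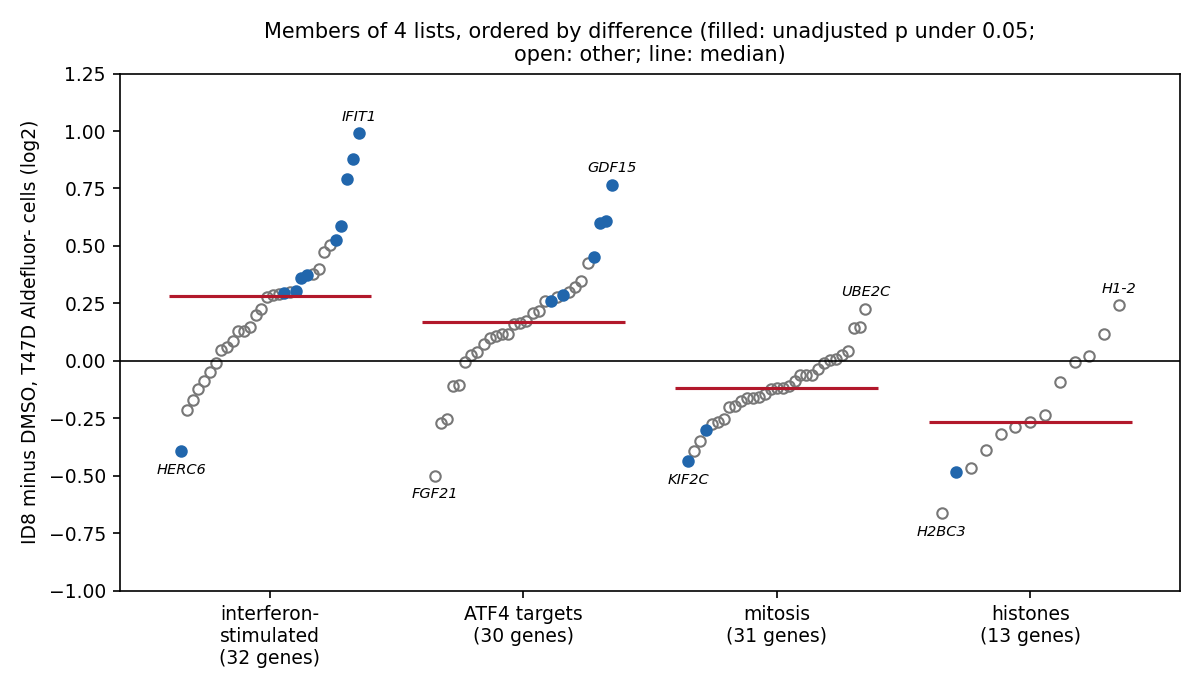
Difference between ID8 and DMSO in T47D Aldefluor- cells (y axis, log2) for each measured gene of 4 lists (x axis), ordered within a list. Filled points have an unadjusted p under 0.05, open points do not, and the red line is the median. The interferon and ATF4 lists lie mostly above 0 (25 of 32 and 24 of 30 genes) and mitosis and histones mostly below (7 of 31 and 3 of 13 above 0).

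Lists of epithelial identity had medians near 0. Luminal genes had 10 of 23 members above 0 and a median of -0.01, with the transcription factor ELF3 at 0.63 and TFAP2C at -0.42. Oestrogen-response genes had 7 of 28 above 0 and a median of -0.05, from CXCL12 at -0.56 to STC2 at 0.45, and genes of progesterone and glucocorticoid response 6 of 17 and -0.04. Basal genes had 9 of 16 above 0 (median 0.03), led by the smooth muscle actin ACTA2 at 0.83. Mesenchymal genes had 3 of 20 above 0 and a median of -0.09, with S100A4 at -0.54. Stem cell genes had 16 of 22 above 0 and a median of 0.09, from the transporter ABCG2 at -0.16 to SOX9 at 0.43. ERBB ligands and receptors had 3 of 13 above 0 (median -0.12), cytokeratin and desmosome genes 8 of 19 (median -0.02), and integrins and laminins 8 of 16 (median -0.00083), with ITGB6 at 0.76.

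Among signalling lists, TGF-β genes had 16 of 24 members above 0 and a median of 0.13. TGFB2, a TGF-β ligand, was at 4.27, 3.16 and 3.52 with DMSO and at 4.17, 5.07 and 4.72 with ID8. Experiment 5 showed no increase while experiments 6 and 7 did, which made a difference of 1.00 that passed the test only without experiment 5. Retinoid genes had 10 of 18 above 0 (median 0.08), led by PLAAT4 at 0.92 and the retinoic acid hydroxylase CYP26A1 at 0.43. Aryl hydrocarbon receptor targets had 8 of 11 above 0 (median 0.16), Wnt genes 14 of 27 (median 0.01, AXIN2 at 0.60 and LRP5 at -0.57), Notch genes 12 of 21 (median 0.04) and YAP targets 8 of 20 (median -0.05, CCN2 at 0.64). The NF-κB list had 12 of 20 above 0 and a median of 0.03, with CXCL2 lowest at -0.88. Immediate early genes had 11 of 25 above 0 (median -0.02), p53 targets 13 of 22 (median 0.02, FAS at 0.55) and prolactin and STAT5 genes 6 of 17 (median -0.02).

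Metabolic lists also had medians near 0, and their outermost genes are given. Cholesterol synthesis had 8 of 18 members above 0 and a median of -0.02, with the epoxidase SQLE at 0.49 and the regulator SREBF2 at -0.43. SQLE went from 5.59, 5.62 and 5.76 to 6.11, 6.12 and 6.19 without overlap, as did 16.5% of all genes. Fatty acid synthesis had 13 of 20 above 0 (median 0.09), fat oxidation 8 of 17 (median -0.00155, PDK4 at 0.63), and glycolysis and hypoxia genes 14 of 28 (median 0.01, the glucose transporter SLC2A1 at -0.62). Amino acid transporters had 12 of 19 above 0 and a median of 0.10. SLC6A14 among them was at 0.91, 0.82 and 1.22 with DMSO and at 1.76, 2.27 and 1.87 with ID8, all near or below 2, a difference of 0.98. In Aldefluor+ cells it was at 3.40, 3.62 and 3.54 with DMSO and 4.66, 4.52 and 4.56 with ID8. Steroid enzymes had 13 of 22 above 0 (median 0.02), from CYP4Z1 at -0.67 to HSD17B1, which makes oestradiol, at 0.91. NRF2 targets had 11 of 20 above 0, respiratory chain genes 15 of 27, splicing factors 10 of 20 and ribosome biogenesis genes 16 of 24, with medians of 0.00850, 0.00842, -0.00178 and 0.03.

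The remaining lists had medians between -0.13 and 0.07 and no called member. MHC class I genes had 8 of 11 members above 0 (median 0.06), FOXO and insulin signalling genes 10 of 19 (median 0.00204), lysosome and autophagy genes 9 of 23 (median -0.01), metallothioneins 5 of 10 (median -0.02) and apoptosis genes 9 of 18 (median -0.00451), with the BCL2 family members PMAIP1 at 0.76 and BOK at -0.75. The longer lists of other cell types had medians of -0.04 for 11 immune, -0.05 for 8 endothelial, 0.07 for 8 fibroblast and -0.13 for 6 adipocyte genes.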

How the data were processed

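The authors deposited log2 signals made by robust multiarray averaging (RMA) and adjusted for experimental and processing batches with ComBat, per the labels' design text. The labels give no versions, batches or protected covariates for these steps, and the adjustment can compress differences. Of 53617 probe sets, 23871 had 1 gene symbol in the platform's table, 1842 had several and 27904 had none. Of the named probe sets 22569 were updated by gene number to RefSeq symbols (GRCh38.p14). For 632 genes with several probe sets the one with the highest mean was used, which left 22395 genes, 49% of them with a mean below 2.

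All 24 arrays were fitted with limma 3.58.1 in R 4.3.3 (lmFit and eBayes, 8 group means, a block for each of the 6 experiments), with Benjamini-Hochberg adjustment over all genes and calls at an adjusted p under 0.05. The scripts were tested on simulated data. The block comes from the labels, in which an experiment number stands for arrays handled together. The labels do not say whether flasks of different experiments came from separate thaws or passages, and with 3 experiments the number of arrays limits the precision. Named were called genes, the 10 of lowest p in each direction, the outermost 2 on each side of a list and a set of compound and sort genes. The genes, lists and tests were chosen with earlier results of these data known. Alternatives covered the block, the arrays fitted, scaling, filters on low signal, probe sets, the prior, array weights and leaving out each T47D experiment. No SUM159 experiment was left out. One further alternative, without 1 SUM159 array, was chosen after seeing the data. RNA per cell was tested with an exact sign-flip permutation test.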

Additional observations from a re-analysis of the deposited data

Results flagged for a closer look

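The ID8 effects in Aldefluor- cells of T47D and SUM159 differed for 15 genes in limma's test of the difference itself, given here as the T47D effect minus the SUM159 effect on the log2 scale. For 12 genes the T47D effect was the lower. They are ANKRD1, a muscle ankyrin repeat protein (-3.25, with the T47D effect at -0.04 and the SUM159 effect at 3.21), the oestrogen sulfotransferase SULT1E1 (-2.75), CXCL12 (-2.53), the prostaglandin receptor PTGER4 (-2.25), EDIL3 (-2.16), the myosin light chain MYL9 (-1.90), PCDH7 (-1.90), THBS1 (-1.89), TLR2 (-1.57), PLXDC2 (-1.50), TRAPPC12-AS1 (-1.27) and ADAMTS9 (-1.04). The 3 genes with the higher effect in T47D are CD24 (1.15), NTN4 (1.68) and GLYATL3 (1.89). For MYL9 both effects were above 0, at 0.90 in T47D and 2.80 in SUM159. CXCL12 was at -0.56 in T47D and 1.97 in SUM159, and PTGER4 at -0.29 and 1.96. Apart from GLYATL3, none of these genes was called in T47D Aldefluor- cells. Without experiment 6 or without experiment 7 of T47D the test called 6 genes each. Its dependence on single SUM159 experiments was not tested.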

How the results depend on the processing

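The 4 calls in T47D Aldefluor- cells (3 higher, 1 lower) became 35 (24 and 11) with no replicate block, a fit that counts degrees of freedom the batch adjustment may have used. These paired experiments are the reason for the block. All 4 genes were among the 35. Without the block, 4 genes differed between the T47D fractions in place of 0, and 82 in place of 15 between the lines. The 12 T47D arrays alone gave 2 calls (2 and 0), and the 6 Aldefluor- arrays alone gave 0 (0 and 0), with 1493 genes at an unadjusted p under 0.05. Adjusting over all 53617 probe sets also gave 0 (0 and 0), with 3202 at an unadjusted p under 0.05 and a smallest adjusted p of 0.0691. Genes with a mean of at least 3 gave 7 calls (4 and 3), and those with a mean of at least 2 gave 5 (5 and 0) and 29 between the lines. Of the 4 genes, only SAA1 was among the 7, since the other 3 fell below that filter and were not tested. CXCR4, GLYATL3 and SAA1 were among the 5, and PTGES fell below that filter too. A trended robust prior gave 9 (6 and 3) and 23 between the lines, and array weights gave 6 (5 and 1). With each array centred on its median, and with quantile normalisation, 3 genes were higher and 0 lower. Leaving out 1 T47D experiment gave 0 to 2 calls (0 to 1 higher and 0 to 1 lower), and 6 to 11 between the lines (16 without the SUM159 array). Where fewer genes were tested or fewer arrays fitted, the change follows in part from that, and otherwise the cause was not tested. No setting reversed a called gene. Over the named genes and settings, 421 values kept their side of the threshold, 32 passed it newly, 23 no longer passed and 7 of genes never called changed sign. The 49% of genes with a mean below 2 limit what low signals can show.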
